A study of Homo sapiens with 6 samples.

Results

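Some peaks of RNA recovered with SF3B4 lay in runs of short segments on the same strand. A chain was defined as a run of rows of the authors' list named mRNA in which each row started at most 20 kb after the end of the previous row on the same strand, and the rows in chains of 5 or more are the members described here. They were 2194 of the 21240 rows of both lists. In RIP-1, 1226 of 10960 rows were members (11.2%, 95% CI 10.6 to 11.8) and formed 196 chains. In RIP-2, 968 of 10280 rows were members (9.42%) and formed 140 chains. Members were chosen by the positions of the rows, so counts and spans of chains are given as a description. Every row carried its own peak name, so a chain of 5 rows holds 5 named peaks.

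The lists come from HEK293T, an established human line of embryonic kidney origin that carries the SV40 large T antigen, in its wild-type form and with no treatment given in the labels. There were 6 libraries: 2 with anti-SF3B4, 2 with non-specific IgG and 2 of input RNA, 1 of each in the experiments RIP-1 and RIP-2. RNA immunoprecipitation with sequencing (RIP-seq) pulls a protein down with an antibody and sequences the RNA that comes with it. The authors called peaks once per experiment, so each list stands for 1 experiment with no error across replicates, and library depth is unknown. IgG and input have no values of their own here, and which of them served as the control of the calls is not stated. No test was run between RIP-1 and RIP-2 or between members and other rows. The 95% intervals are Wilson intervals of shares, which cover counting error only and are too narrow where rows of 1 chain behave alike.

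SF3B4 belongs to SF3b, a protein complex in the U2 small nuclear ribonucleoprotein, which recognises the branch site of an intron during splicing. Genes of human cells are mostly copied as long precursors in which short exons alternate with long introns, and splicing joins the exons into the messenger RNA. Inner exons are typically short, while the last exon, which holds most or all of the 3′ untranslated region, is often the longest. A spliced transcript that is recovered along its length therefore appears on the genome as short segments on 1 strand with gaps between them. Whether the segments of the mRNA lists are exons was not checked, since no annotation of hg19, the build of the files, was used here, and for the same reason chains are given by position and not by gene name. A chain can also run across neighbouring genes of the same strand.

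Chains were mostly short in both experiments, but RIP-2 had the longer tail. Exactly 5 rows were held by 88 of the 196 RIP-1 chains (44.9%, 95% CI 38.1 to 51.9) and by 65 of the 140 RIP-2 chains (46.4%, 95% CI 38.4 to 54.7). Chains of 10 rows or more numbered 10 in RIP-1 (5.10%, 95% CI 2.79 to 9.14) and 17 in RIP-2 (12.1%, 95% CI 7.72 to 18.6). The longest run was 14 rows in RIP-1 and 33 rows in RIP-2. Just outside the threshold were 163 RIP-1 chains and 134 RIP-2 chains of 4 rows, with median spans of 21.9 kb and 23.5 kb. Chains of 5 rows, just inside it, had median spans of 26.8 kb in RIP-1 and 30.2 kb in RIP-2. A further row lay between 20 and 25 kb from an end of 27 RIP-1 chains and of 29 RIP-2 chains.

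**Figure D1:**
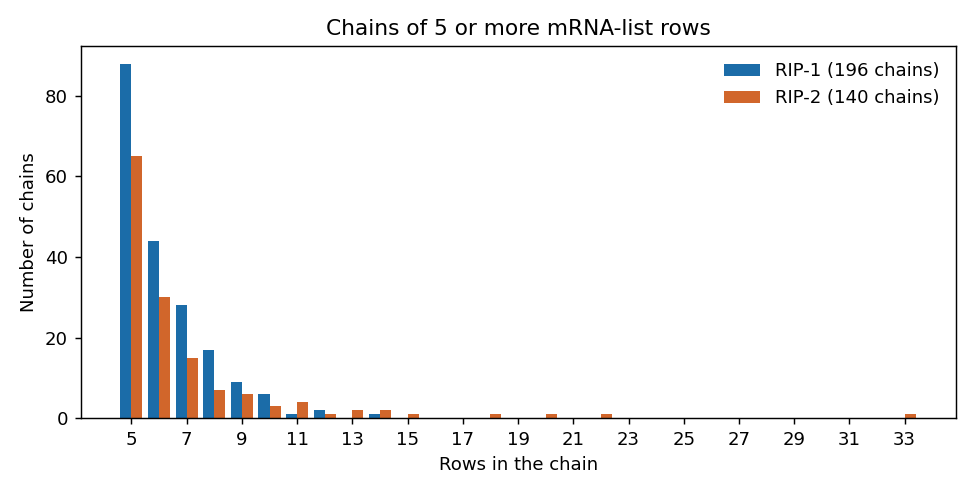
Number of chains (vertical axis) by number of rows in the chain (horizontal axis) for RIP-1 (left bar of each pair) and RIP-2 (right bar). RIP-1 has more chains, 196 against 140, while the longest RIP-1 chain has 14 rows and the longest RIP-2 chain has 33.

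A chain spanned a median of 32.3 kb in RIP-1 (interquartile range 22.8 to 43.4, from 6.58 to 102) and of 37.6 kb in RIP-2 (25.7 to 47.5, from 8 to 174). Most of a span was gap. Segments covered a median of 6.32% of the span in RIP-1 chains and of 3.86% in RIP-2 chains. The gap between neighbouring segments had a median of 4.58 kb in RIP-1 (interquartile range 2.12 to 9.27) and of 5.18 kb in RIP-2 (2.32 to 9.97). Gaps under 200 bp were few, with 21 of 1030 in RIP-1 and 12 of 828 in RIP-2. Rows of the opposite strand fell in the span of only 4 RIP-1 chains and 1 RIP-2 chain. Neighbouring members mostly had consecutive peak numbers, so that no other peak of the same call lay between them. This held for 85.8% of neighbouring pairs in RIP-1 (95% CI 83.6 to 87.8) and for 74.3% in RIP-2 (95% CI 71.2 to 77.1).

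The RIP-1 chain with the most rows stood at chr17:71333036-71434293 on the minus strand in hg19 and had 14 rows in 101 kb. Its last segment along the strand, from 71333036 to 71335079, was 2043 bp long and had the highest score of the chain, 923. The score is the peak caller's own value as deposited by the authors, with a floor of 50. The other 13 segments were 103 to 196 bp long with scores of 62.7 to 274. No RIP-2 row of that strand lay anywhere in this span. The next RIP-1 chains by rows were at chr3:183439678-183516777 on the plus strand and at chr2:183817840-183868053 on the minus strand, with 12 rows each. Then came chr10:71103582-71161615 on the plus strand with 11 rows and chr12:124821298-124907101 on the minus strand with 10 rows. These 4 chains also held 0 RIP-2 rows. By span the longest RIP-1 chain was at chr2:20448451-20550611 on the minus strand, with 8 rows over 102 kb. It again ended in its longest segment, of 3026 bp, and its gaps reached 19.3 kb, close to the limit of the rule.

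The RIP-2 chain with the most rows was also its longest, at 174 kb, at chr6:56336648-56510791 on the minus strand. It had 33 rows, with segments of 84 to 2730 bp (median 177) and scores of 50.6 to 498 (median 81.7). Its longest and highest-scoring segment was an inner one, from 56482783 to 56485513. RIP-1 had 5 rows in this span, each with a RIP-2 partner, at 0, 37.8, 89.5, 153 and 161 kb from the lower end. By the rule 3 of them stood alone and the upper 2 formed a chain of 2. The next RIP-2 chains were at chr4:104029959-104119566 on the minus strand with 22 rows, and at chr7:91645442-91738156 on the plus strand with 20 rows. They were followed by chr12:88447428-88533341 on the minus strand with 18 rows and chr14:56068474-56128330 on the plus strand with 15 rows. RIP-1 rows stood in all 4 of these spans, with 2, 6, 4 and 1 rows in that order. After the chain on chromosome 6, the longest RIP-2 spans were 107 kb on chromosome 11 from 103019218 and 101 kb on chromosome 2 from 32654213, with 14 rows each and with 3 and 5 RIP-1 rows.

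**Figure D2:**
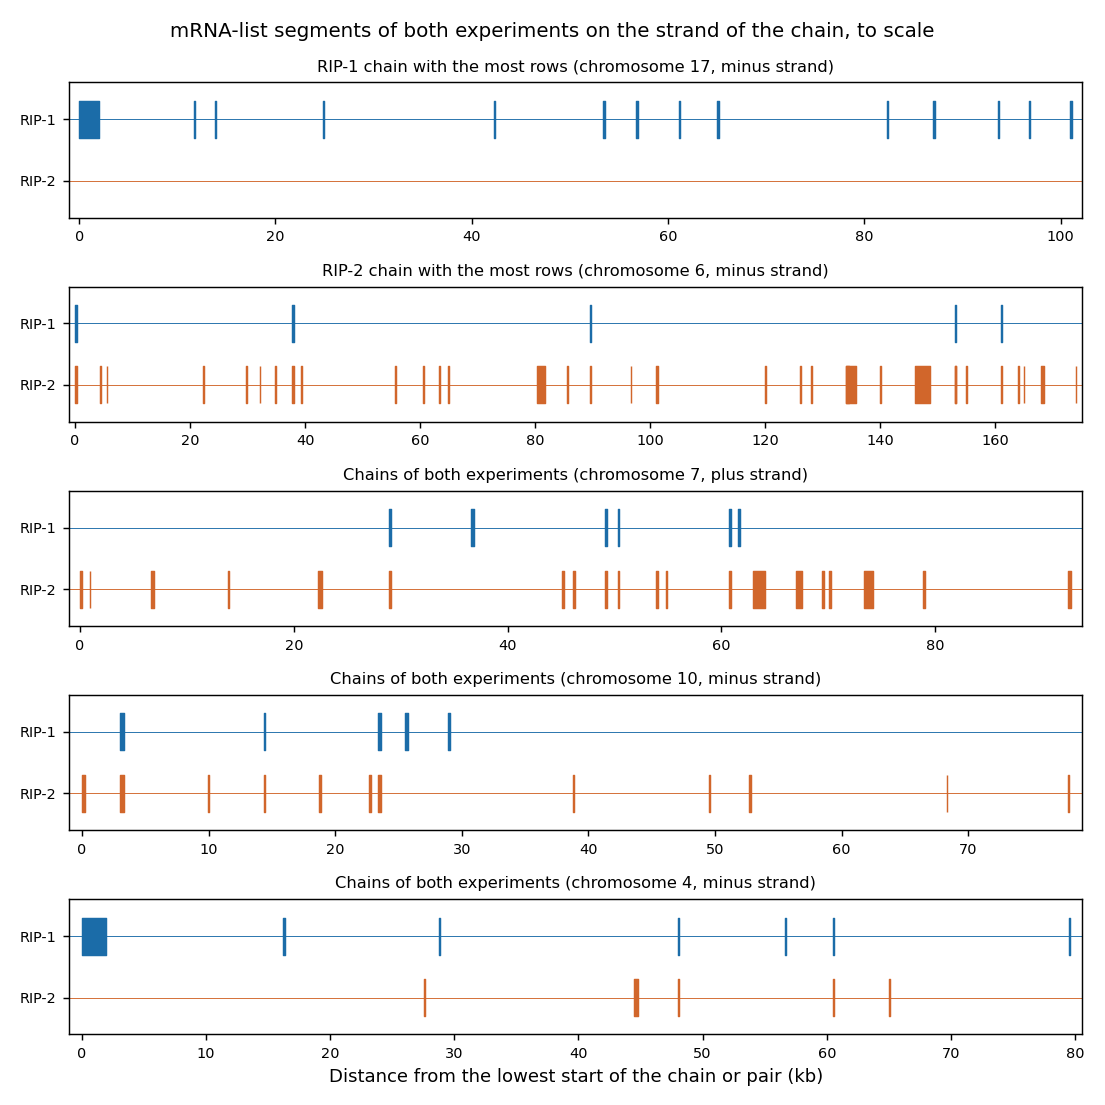
Segments of the mRNA lists on the strand of the chain, drawn to scale against the distance from the lowest start (kb), with RIP-1 above RIP-2 in each of 5 panels. The RIP-1 chain of 14 rows on chromosome 17 faces 0 RIP-2 rows, the RIP-2 chain of 33 rows on chromosome 6 faces 5 RIP-1 rows, and the 3 lower panels show the places where both experiments had a chain.

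The same place was rarely chained in both experiments. Only 3 of the 196 RIP-1 chains overlapped a RIP-2 chain (1.53%, 95% CI 0.522 to 4.40), which is 3 of the 140 RIP-2 chains (2.14%, 95% CI 0.731 to 6.11). These shares depended on the gap of the rule, with 0% in both experiments at 10 kb, and 8.88% of RIP-1 and 10.9% of RIP-2 chains at 50 kb. As a background for rows, 1.41% of all RIP-1 rows lay inside the span of a RIP-2 chain and 0.554% of all RIP-2 rows inside the span of a RIP-1 chain. These are shares of single rows, so they can be set against member rows but not against the shares of chains. Of the members, 15 of 1226 RIP-1 rows (1.22%, 95% CI 0.743 to 2.01) and 19 of 968 RIP-2 rows (1.96%, 95% CI 1.26 to 3.05) did. The RIP-1 share is near its background. The RIP-2 share is above it, but all 19 rows stood in the 3 pairs of overlapping chains, as did the 15 of RIP-1, so they are not separate cases. A lower bar for the other experiment changed the picture in RIP-2 more than in RIP-1. Runs of at least 3 rows of the other experiment overlapped 7 RIP-1 chains (3.57%) and 19 RIP-2 chains (13.6%), and runs of at least 2 rows overlapped 15 (7.65%) and 40 (28.6%).

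The first pair by rows was on the plus strand of chromosome 7. RIP-1 had 6 rows from 91674321 to 91707189, all inside the 20 rows of RIP-2 from 91645442 to 91738156, and 4 segments were common to both with identical edges. From 91674321 to 91674527 RIP-1 scored 59.6 and RIP-2 scored 117. From 91694544 to 91694777 RIP-1 scored 94.5 and RIP-2 scored 64.3. The other 2 common segments, from 91695740 to 91695860 and from 91706168 to 91706321, scored 65.5 and 76.3 in RIP-1 and 82.0 and 152 in RIP-2. RIP-2 had the higher score in 3 of the 4 common segments and RIP-1 in 1. RIP-2 had 4 further rows within the RIP-1 span, and 2 RIP-1 rows had no partner.

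The second pair was on the minus strand of chromosome 10, with 5 RIP-1 rows from 27306430 to 27332496 and 12 RIP-2 rows from 27303422 to 27381441. Of these, 3 segments were common, all with the same edges, and their scores were 103, 66.8 and 75.6 in RIP-1 and 99.3, 74.4 and 52.5 in RIP-2. The third pair was on the minus strand of chromosome 4, with 7 RIP-1 rows from 68482862 to 68562425 and 5 RIP-2 rows from 68510415 to 68547931. It had 2 common segments, from 68530906 to 68531010 and from 68543328 to 68543440, where RIP-1 scored 57.4 and 61.3 while RIP-2 scored 86.7 and 82.2. Counted over both chains, most segments of each pair were not common to both experiments. The pairs left 2, 2 and 5 RIP-1 rows and 16, 9 and 3 RIP-2 rows without a partner in the other chain.

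Single rows of the other experiment showed an uneven picture. A RIP-2 row stood in the span of 29 of the 196 RIP-1 chains (14.8%, 95% CI 10.5 to 20.4), whereas a RIP-1 row stood in the span of 80 of the 140 RIP-2 chains (57.1%, 95% CI 48.9 to 65.0). For chains below the threshold, RIP-2 rows stood in 21.2% of the RIP-1 chains of 3 rows (95% CI 17.7 to 25.2) and in 17.2% of those of 4 (12.2 to 23.7), and these intervals overlap. RIP-1 rows stood in 30.4% of the RIP-2 chains of 3 rows (95% CI 25.7 to 35.6) and in 44.8% of those of 4 (36.6 to 53.2). Spans differ in length between these classes, so the shares are not rates. Per length of span, RIP-1 spans held 8.34 RIP-2 rows per Mb, 4.28 times the mean of the same chromosomes and strands. RIP-2 spans held 26.8 RIP-1 rows per Mb, 14.3 times that mean. Genes are not spread evenly, so a rate above the chromosome mean is not a measure of shared binding.

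A member of RIP-1 had a partner in RIP-2 less often than the list as a whole, and a member of RIP-2 somewhat more often. A partner was a row of the other experiment that shared at least 1 bp of the same strand, which 6.41% of all RIP-1 rows and 6.91% of all RIP-2 rows had. Among members it was 28 of 1226 in RIP-1 (2.28%, 95% CI 1.58 to 3.28), against 675 of the 9734 rows outside chains (6.93%, 95% CI 6.45 to 7.46). In RIP-2 it was 87 of 968 members (8.99%, 95% CI 7.34 to 11), against 623 of 9312 other rows (6.69%, 95% CI 6.20 to 7.22). In RIP-1 the share was 7.96% for rows that stood alone, 3.22% in chains of 4, 4.32% in chains of 5, 2.27% in chains of 6 and 1.53% in chains of 7. It was 0 of 326 rows in RIP-1 chains of 8 or more, where the Wilson interval reaches 1.16% and the limit of 3 counts, which is used for a count of 0, is 0.920%. These rows came from 36 chains, so both limits are too low where rows of 1 chain behave alike. In RIP-2 the shares had no such order. They were 6.12% for rows that stood alone, 9.74% in chains of 3, 6.72% in chains of 4, 9.54% in chains of 5, 10% in chains of 6 and 3.81% in chains of 7. In RIP-2 chains of 8 or more, 34 of 358 rows had a partner (9.50%, 95% CI 6.88 to 13). So rows in RIP-2 chains of 3, which are not members, had a share as high as members. The share in chains of 7 rests on 4 of 105 rows, and its 95% interval of 1.49 to 9.39 includes the share of the list. The RIP-1 share of members moved with the rule, to 0.824% with gaps of at most 10 kb and to 3.99% with 50 kb. In the upper 50% of each list by score, 0.416% of RIP-1 members and 2.55% of RIP-2 members had a partner. Both lists were cut for this, so fewer partners were possible by construction. The share over all rows of the cut lists was not computed, so these 2 values cannot be set against the shares of the full lists.

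**Figure D3:**
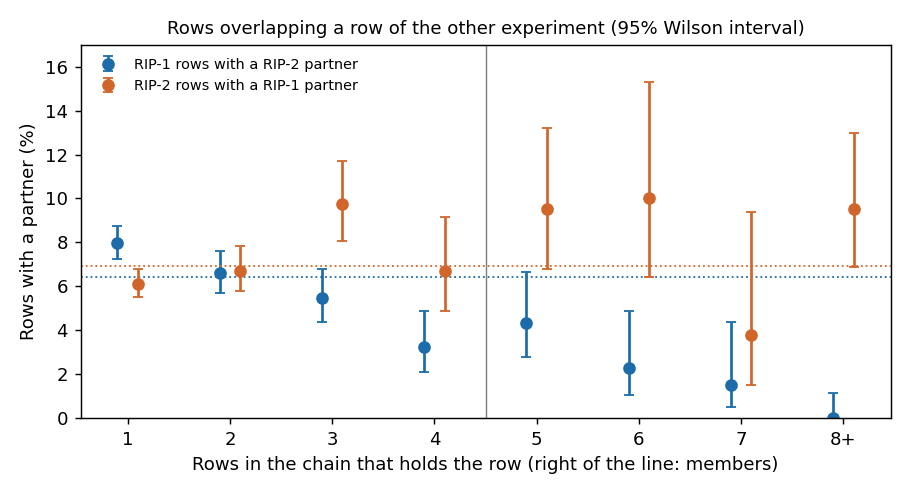
Share of rows that overlap a row of the other experiment (%, with 95% Wilson intervals) by the number of rows in the chain that holds the row, for RIP-1 and RIP-2. Dotted lines mark the shares over all rows, 6.41% and 6.91%, and members lie right of the vertical line: the RIP-1 points go down to 0 of 326 rows in chains of 8 or more, while the RIP-2 point there is 9.50%.

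Where members did have a partner, the edges were nearly always the same. Both edges were identical in 27 of 28 pairs of RIP-1 members (96.4%, 95% CI 82.3 to 99.4) and in 79 of 87 pairs of RIP-2 members (90.8%, 95% CI 82.9 to 95.3). Among the overlapping pairs of other rows they were identical in 441 of 682 for RIP-1 (64.7%, 95% CI 61.0 to 68.2) and in 389 of 623 for RIP-2 (62.4%, 95% CI 58.6 to 66.2). Over all rows the share was 65.9% of 710 pairs. Members with a partner are few in RIP-1 and were not matched to other rows by length. Segments under 200 bp made up 57.3% of RIP-1 members and 67.7% of RIP-2 members, while no whole non-exon peak was that short. A RIP-2 member of 4 bp, from 144213125 to 144213129 on chromosome 1, also had identical edges. Whether edges were set by the calls or by a cut of peaks at common boundaries was not tested. Such a cut could make edges equal in advance, so identical edges are not read as agreement of binding. The RIP-1 member without identical edges, picked after the values were seen, stood on chromosome 7 from 24731811 to 24733145. Its partner ran from 24732335 to 24733322. The partner stood alone in its own list in 11 of the 28 RIP-1 pairs and in 32 of the 87 RIP-2 pairs, and it was itself in a chain of 5 or more in 9 pairs, the same 9 segments as above. The 28 RIP-1 members with a partner came from 19 chains and the 87 RIP-2 members from 58.

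Member segments were shorter than other rows in RIP-1 and of nearly the same length in RIP-2. The median length, taken as end minus start, was 179 bp for RIP-1 members (interquartile range 127 to 324) and 227 bp for the other RIP-1 rows (136 to 617). In RIP-2 it was 155 bp for members (112 to 224) and 161 bp for the other rows (103 to 340). Segments under 200 bp made up 57.3% of RIP-1 members and 45.0% of other RIP-1 rows, and 67.7% of RIP-2 members and 60.1% of other RIP-2 rows. Whole non-exon peaks of the same calls were never shorter than 206 bp for RIP-1 or 200 bp for RIP-2. Very short segments, under 80 bp, were 7.34% of members against 6.45% of other rows in RIP-1, and 8.47% against 15% in RIP-2. Segments of 2 kb or more numbered 34 among RIP-1 members (2.77%, against 3.61% of other rows) and 13 among RIP-2 members (1.34%, against 0.687% of other rows). These counts are small, and rows in RIP-1 chains of 5 had 4.09%, so no direction is read from the shares. The longest member segment had 11534 bp in RIP-1, on the minus strand of chromosome 7 from 139246609. In RIP-2 it had 5189 bp, on the minus strand of chromosome 3 from 121412587.

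Length differed with the place in the chain, and in RIP-1 more than in RIP-2. The last segment in the direction of the strand had a median of 608 bp in RIP-1 (interquartile range 199 to 1245), against 168 bp for inner segments (122 to 234) and 191 bp for the first (127 to 296). In RIP-2 the last segment had a median of 182 bp (120 to 427), against 155 bp for inner segments (114 to 215) and 142 bp for the first (106 to 194). A length of 1 kb or more was found in 61 of 196 last segments in RIP-1 (31.1%, 95% CI 25.1 to 37.9) and in 46 of 834 inner ones (5.52%, 95% CI 4.16 to 7.28). In RIP-2 it was 13 of 140 last segments (9.29%, 95% CI 5.51 to 15.2) and 23 of 688 inner ones (3.34%, 95% CI 2.24 to 4.97). The longest segment of a chain was its last in 101 of 196 RIP-1 chains (51.5%, 95% CI 44.6 to 58.4), although last segments are 16.0% of members. It was the last in 38 of 140 RIP-2 chains (27.1%, 95% CI 20.5 to 35.0), where last segments are 14.5% of members. Chains of 3 and 4 rows, outside the rule, had medians of 316 bp for the last and 173 bp for inner segments in RIP-1, while those medians were 166 bp and 140 bp in RIP-2. The last row of a chain is the last that was called and need not be the last exon of a gene.

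**Figure D4:**
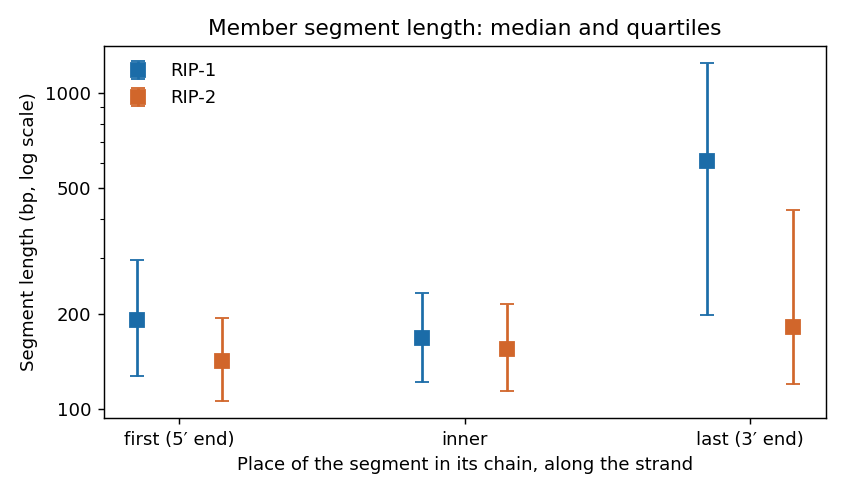
Median length of member segments (bp, log scale, bars from the lower to the upper quartile) for the first, inner and last segment of a chain along the strand. The last segments of RIP-1 stand out with a median of 608 bp, while the other 5 medians lie between 142 and 191 bp.

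Scores of members were higher than those of other rows, mainly in RIP-1. The median score was 107 for RIP-1 members (interquartile range 71.1 to 203) and 77.6 for the other RIP-1 rows (60.5 to 116). In RIP-2 it was 87.1 for members (66.2 to 129) and 78.8 for other rows (61.7 to 112). In RIP-1 the median was 97.0 in chains of 5 rows and 131 in chains of 8 or more, and in RIP-2 83.9 and 93.7. Rows of 1 chain resembled each other in score, more so in RIP-1. As an intraclass correlation, which is corrected for the number of rows per chain and is about 0 where chains do not differ, differences between chains made up 39.9% of the variance of log10 scores among RIP-1 members and 14.2% among RIP-2 members. For log10 length these shares were 9.09% and 11.8%. Scores come from the call that the rule used, so they are a description only.

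Chains without a row of the other experiment included very strong ones. In RIP-1 the highest median score among all chains was at chr15:38746327-38779646 on the plus strand, with 8 rows in 33.3 kb. Of these, 5 neighbouring segments scored 3100, the first 2 scored 2513 and 2745, and the last scored 179. Its segments of 81 to 1939 bp included 3 of over 600 bp at the 3′ end, from 38773492 to 38779646. Next among those without a RIP-2 row were the chains at chr1:1716723-1747301 on the minus strand, with 5 rows and a median score of 2766, and at chr7:77200394-77269388 on the plus strand, with 9 rows and a median of 878. Between these 2, a chain at chr1 that began at 43133558 had a median score of 1829 and 1 RIP-2 row in its span. Scores of at least 3100 belonged to 11 RIP-1 members in 6 chains and to 1 RIP-2 member, out of 58 RIP-1 rows and 2 RIP-2 rows of the whole lists. No member scored above 3100, a value that looks like a cap although a few other rows lie above it, so a chain median of 3100 may be a ceiling and strong rows cannot be ranked by it. That RIP-2 row, from 214817899 to 214820743 on the plus strand of chromosome 1, was an inner segment of the RIP-2 chain with the highest median score among those without a RIP-1 row. The chain ran from 214791915 to 214837734 with 11 rows, a median of 334 and a lowest score of 107. The next RIP-2 chains of this kind were on chromosome X from 49298483 to 49336827 (6 rows, median score 228) and on chromosome 5 from 136955306 to 136993969 (5 rows, median score 195).

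Members were spread over the chromosomes in different ways in RIP-1 and RIP-2. On chromosome 19, 123 of 665 RIP-1 rows were members (18.5%, 95% CI 15.7 to 21.6) in 20 chains, while 7 of 298 RIP-2 rows were (2.35%, 95% CI 1.14 to 4.77) in 1 chain. Chromosome 21 had the highest member share of RIP-1 of all chromosomes, with 44 of 136 rows (32.4%, 95% CI 25.1 to 40.6), and 11 of 120 rows in RIP-2 (9.17%, 95% CI 5.20 to 15.7). On chromosome 22 RIP-1 had 18.1% against 5.46% for RIP-2, and on chromosome 17 RIP-1 had 15.6% against 7.27%. The order was turned on chromosome 14, where 5 of 354 RIP-1 rows (1.41%, 95% CI 0.605 to 3.26) and 63 of 367 RIP-2 rows (17.2%, 95% CI 13.7 to 21.4) were members. It was also turned on chromosome 6, with 7.84% in RIP-1 and 15.7% in RIP-2, on chromosome 4, with 4.53% and 13.1%, and on chromosome 13, with 9.92% and 16.3%. Chromosome 3 was close, with 12.3% and 10.9%. Rows of a chain become members together, so these intervals, which are on rows, are too narrow. Chains of RIP-1 and RIP-2 numbered 1 and 8 on chromosome 14, 8 and 2 on 21, and 7 and 1 on 22. They numbered 15 and 5 on chromosome 17, 6 and 12 on 6, 3 and 7 on 4, and 4 and 7 on 13. Several of these contrasts thus rest on few chains. Rows per chromosome differed as well, and denser rows chain more easily, so the shares are not free of list density.

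A pair of RIP-1 chains shared 1 layout. On the minus strand of chromosome X, 7 rows ran from 1505044 to 1544580, and on the minus strand of chromosome Y, 5 rows ran from 1455044 to 1494580. At an offset of -50000 bp from X to Y, 4 segments had the same start and the same length in both, namely 608, 487, 351 and 163 bp. Their scores on X were 271, 833, 128 and 150, and on Y 162, 268, 169 and 124. The tips of the short arms of X and Y, the pseudoautosomal region, carry the same sequence, so these 2 chains cannot be counted as separate places. Without chromosome Y, RIP-1 had 195 chains and 1221 members. No other pair of chains at different places had 3 or more segments in the same layout, in either experiment or between them. This comparison needed equal distances too, so it does not find repeated lengths alone. All 7 rows of the RIP-1 chain at chr1:148256692-148280742 were 173 bp long, the median also of the chain from 148304401. RIP-2 chains on chromosome X from 49161882 and 49298483 both had a median of 121 bp. These were picked after the values were seen, and whether they hold copies of 1 sequence was not tested.

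Non-exon peaks, a separate list of each call that the rule did not use, were unevenly placed around the chains. The rule does bear on the flanks, since a chain ends where its own list has no further row of that strand within 20 kb. Flanks may also leave the gene of a chain. What part this has in the comparisons of spans with flanks was not tested. In RIP-1 spans, RIP-1 non-exon peaks numbered 172, or 25.2 per Mb, against 18.5 per Mb in flanks of the same length on each side and 9.39 per Mb on the same chromosomes. RIP-2 non-exon peaks numbered 84 in RIP-1 spans, or 12.3 per Mb, against 40.4 per Mb in the flanks and 44.9 per Mb on the same chromosomes. By chain, RIP-1 density was below that of the flanks in 77 RIP-1 chains and above it in 69, with no peak in either for 38. So the higher pooled RIP-1 density did not hold in most chains. RIP-2 density was below that of the flanks in 129 RIP-1 chains and above it in 17, with no peak in either for 42. At least 1 RIP-1 non-exon peak stood in 97 of 196 RIP-1 spans (49.5%, 95% CI 42.6 to 56.4), and at least 1 of RIP-2 in 46 (23.5%, 95% CI 18.1 to 29.9). The RIP-2 density in RIP-1 spans moved with the rule, to 0.965 per Mb with gaps of at most 10 kb and to 28.3 with 50 kb. Without chromosome 19, where RIP-1 had 20 chains and RIP-2 had 1, the RIP-2 densities were 13.3 in spans and 41.9 per Mb in flanks.

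Around RIP-2 chains the densities in spans and flanks were closer. RIP-2 non-exon peaks numbered 300 in RIP-2 spans, or 52.1 per Mb, against 52.4 in the flanks and 46.8 on the same chromosomes. RIP-1 non-exon peaks numbered 65 in RIP-2 spans, or 11.3 per Mb, against 13 in the flanks and 8.96 on the same chromosomes. By chain, RIP-2 density was below that of the flanks in 74 RIP-2 chains and above it in 54. RIP-1 density was below it in 59 RIP-2 chains and above it in 31, with no peak in either for 44. RIP-2 non-exon peaks stood in 103 of 140 RIP-2 spans (73.6%, 95% CI 65.7 to 80.2). The ratios differed with the number of rows. RIP-2 density over that of the flanks was 0.696 for RIP-1 chains of 2 rows, 0.688 for 3 rows and 0.544 for 4 rows. It was 0.433 for 5 rows, 0.239 for 6 or 7 rows and 0.258 for 8 or more. For RIP-1 peaks in RIP-1 chains the ratios were 0.966 for 2 rows, 1.22 for 3 rows and 1.35 for 4 rows. They were 1.43 for 5 rows, 1.23 for 6 or 7 rows and 1.45 for 8 or more. The like ratios for RIP-1 peaks in RIP-2 chains had no steady order, with 1.03 for 2 rows, 0.809 for 3 rows and 0.966 for 4 rows. They were 1.02 for 5 rows, 0.889 for 6 or 7 rows and 0.714 for 8 or more, where 20 peaks lay in spans. Those of RIP-2 peaks in RIP-2 chains were 0.945 for 2 rows, 0.906 for 3 rows and 0.888 for 4 rows. They were 0.705 for 5 rows, 1.23 for 6 or 7 rows and 1.15 for 8 or more.

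The densities also differed with the size of the gap between members. In gaps under 5 kb between RIP-1 members, RIP-2 non-exon peaks stood at 0.762 per Mb, with 1 peak in 552 gaps, and at 21.0 per Mb in gaps of 10 to 20 kb. In gaps between RIP-2 members the corresponding values were 36.4 and 59.7 per Mb. RIP-1 non-exon peaks stood at 8.38 and 31.1 per Mb in these gaps of RIP-1 chains, and at 7.29 and 12.7 per Mb in those of RIP-2 chains. So gaps under 5 kb had the lower density in all 4 combinations, but part of this order may be fixed in advance. No non-exon peak was shorter than 200 bp. RIP-1 chains had gaps down to 0.002 kb, those of RIP-2 down to 0.009 kb. A short gap has less room for a whole peak, so the 4 combinations are not read as a pattern of binding. The part that this room, read depth, gene density or the choice of control library has in these densities was not tested. Inside RIP-1 spans the deposited fold enrichment over the control had a median of 6.22 for RIP-1 non-exon peaks (6.55 elsewhere) and of 7.08 for RIP-2 peaks (8.19 elsewhere). Inside RIP-2 spans the medians were 5.64 for RIP-1 peaks and 7.71 for RIP-2 peaks. The median peak score went the other way for RIP-1 non-exon peaks in RIP-1 spans, at 92 against 66.8 elsewhere. For RIP-2 peaks in RIP-1 spans it was 79.3 against 80.6 elsewhere. Inside RIP-2 spans it was 67.7 against 66.9 for RIP-1 peaks and 81.8 against 80.6 for RIP-2 peaks.

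**Figure D5:**
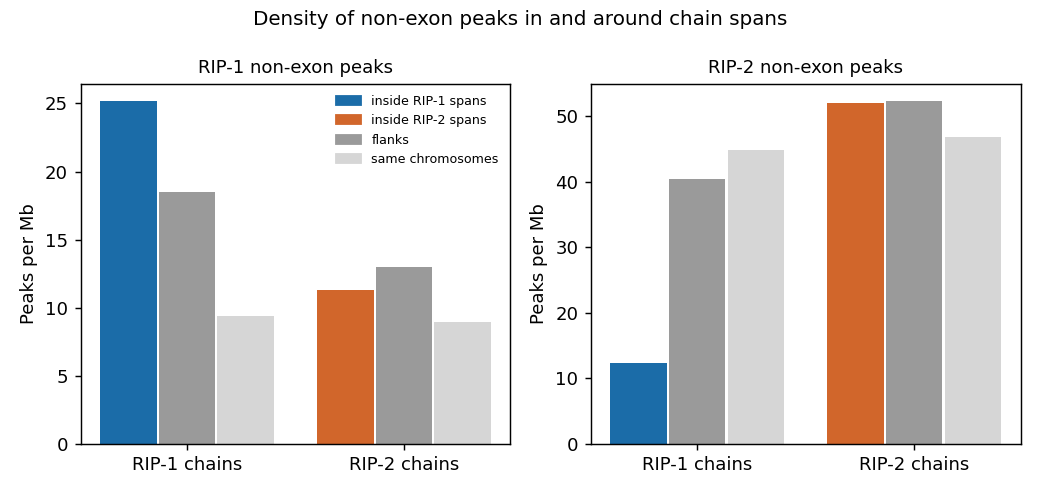
Non-exon peaks per Mb of RIP-1 (left panel) and RIP-2 (right panel) inside the spans of RIP-1 and RIP-2 chains (coloured bars), in flanks of the same length on each side (dark grey) and on the same chromosomes (light grey). In RIP-1 spans the RIP-2 density is 12.3, against 40.4 in the flanks, while in RIP-2 spans it is 52.1, against 52.4.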

How the data were processed

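RIP-seq libraries of anti-SF3B4, IgG and input were made from HEK293T in 2 experiments. The build was hg19, and the tools HISAT2 2.0.4 and cutadapt 1.9.3, per the submitters' processing notes. Peak names carry the prefix of MACS, while version, settings and control are not stated there. The deposited score per peak is the caller's, on a scale no header names, and the deposited non-exon lists also hold a fold enrichment, a ratio over the control, read from column order. Column meanings follow the file layout, since the files have no header. Depth is unknown. The counting base of the mRNA lists is unknown, so positions may be off by 1 bp.

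Rows were sorted by chromosome, strand and start and chained with gaps of at most 20 kb (Python 3.11.15, pandas 2.3.3). Chain and row overlaps needed at least 1 bp on the same strand. Non-exon peaks, which have no strand, were placed by midpoint, and chromosome densities used the distance from the first to the last peak. No p-value was computed. The steps were checked on simulated lists. Chains named by position are, per experiment, the 5 with the most rows, the 3 longest, the 3 with the highest median score and no row of the other experiment, all overlapping pairs, and the members of highest score. The members, the chain rule and these choices were made with earlier results of these data known. The layout of chains on X and Y, the gap classes, the longest members, the chain of median score 1829 and the RIP-1 row without common edges were chosen after the values were seen. No genome sequence of hg19 was used here, so no sequence is printed. Alternatives were other gaps, row minimums, overlaps and scores.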

Additional observations from a re-analysis of the deposited data

How the results depend on the processing

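Of 114 alternative values, 77 stayed within limits set as 1.5 times for counts, medians and densities and as the 95% interval for shares, and 37 moved further. By construction, chain counts follow the rule. With gaps of 10 kb there were 104 RIP-1 and 58 RIP-2 chains with 607 and 385 members, with 50 kb 349 and 285 chains with 2254 and 1984, from 4 rows 359 and 274 with 1878 and 1504, and from 8 rows 36 and 30 with 326 and 358. The upper 50% by score left 77 and 34 chains with 481 and 235 members. RIP-1 members with a partner were 0.824% with gaps of 10 kb, 3.99% with 50 kb, 0% from 8 rows and 0.416% for the upper 50%, where RIP-2 members had 2.55%, with fewer possible partners by construction. Chains overlapping a chain of the other experiment were 0% of RIP-1 and 0% of RIP-2 chains with gaps of 10 kb, from 8 rows, in the upper 50% or with 50% of both spans required, and 8.88% of RIP-1 and 10.9% of RIP-2 chains with 50 kb. RIP-2 non-exon peaks in RIP-1 spans stood at 0.965 per Mb with gaps of 10 kb and 28.3 with 50 kb. Ignoring strand, leaving out chromosomes 1 and 13 and taking medians over chains stayed within the limits. Counting rows of the same peak name once changed nothing, since no name repeats. Its values are among the 77 although they could not have moved. Added after the data were seen, leaving out chromosome Y or 19 and joining rows under 200 bp apart stayed within the limits. No paired analysis was possible because a list holds 1 call per experiment, and leaving out a replicate would leave 1 list. Unknown depth limits every comparison of RIP-1 with RIP-2.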

Other observations

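Some chains were nearly continuous and not a run of short segments. In RIP-1, 5 rows on the minus strand of chromosome 8 covered 85.2% of their 9.78 kb, with segments of 698 to 3550 bp. In RIP-2, 5 rows at chr7:100634943-100646664 on the plus strand covered 77.5% of 11.7 kb, with segments of 480 to 3329 bp. Neither span held a row of the other experiment or a non-exon peak. Both were picked for their coverage after the values were seen, and they show that a chain of 5 rows can be made of long neighbouring pieces.

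Outside the 3 pairs, the RIP-1 chains with the most RIP-2 rows in their span were at chr10:118687302-118738819 on the minus strand and at chr12:107378892-107415970 on the minus strand, with 3 RIP-2 rows each. Of their 5 rows each, 2 had a partner with identical edges. On chromosome 12, the RIP-2 chain from 88447428 to 88533341 held 18 rows and had 4 RIP-1 rows in its span, of which 0 overlapped a RIP-2 row.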
